A study of Mus musculus with 6 samples.

Results

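The genes described here are the chemokines and chemokine receptors of the mouse uterus, a list of 47 genes chosen by name out of 56748 genes in each deposited table, and all 47 were found there. They comprised 31 ligands, 12 signalling receptors and 4 atypical receptors. On day 4 of pregnancy, at 1600 h, 3 control and 3 *Gp130* ecKO uteri had been taken whole in order to ask what epithelial *Gp130* does before the embryo attaches. *Gp130* is the gene *Il6st*, the shared signal transducer of the receptors for leukemia inhibitory factor and interleukin 6. The background was C57BL/6 by the labels and C57BL/6J by the methods of the study, and all females had mated with fertile males. *Gp130* ecKO females carried floxed *Gp130* and an iCre inserted at lactoferrin (*Ltf*), a gene that is turned on in the uterine epithelium of mature females. The labels call the controls wildtype, whereas the methods of the study also allow floxed females without iCre. *Ltf* is also active in some neutrophils and macrophages, cells that carry many of the receptors on this list, so the deletion need not have been limited to the epithelium. Stroma and myometrium keep intact *Gp130*. The labels number the uteri within each group without naming the animals, and the p-values measure only the spread between these uteri.

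Chemokines are small secreted proteins that guide the movement of leukocytes. They are classed as CC, CXC, XC or CX3C by the spacing of cysteines near the N terminus, and each binds one or more receptors that couple to G proteins and turn the cell toward the source. Atypical receptors bind chemokines without that signal and remove or transport them. In the uterus before implantation, chemokines from the epithelium, stroma and vessels are known for drawing in macrophages, neutrophils and natural killer (NK) cells, and several of them also act in tissue upkeep.

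Total expected counts per uterus were 13960748 in control 3 and 22930513 to 25906443 in the other 5 uteri, so that 3 counts, taken here as the floor of detection, corresponded to 0.115 to 0.200 CPM (counts scaled to the same library size). For *Il6st* the control values of 631.1, 678.1 and 451.6 CPM did not overlap those of *Gp130* ecKO, 387.7, 349.8 and 361.8 CPM (log2 fold change -0.68, SE 0.21, adjusted p = 0.12 in edgeR's quasi-likelihood test). In a multidimensional scaling of the tested genes, control 2 lay apart from the other controls on the first axis only. It was at 0.0289 there, against 2.08 and 2.09 for the other controls and -1.47 to -1.32 for *Gp130* ecKO. On the second axis controls 1 and 3 were the most distant controls, at 1.7 and -1.61, with control 2 between them at -0.285. *Gp130* ecKO 2 held the highest summed TPM of T cell markers of all 6 uteri, and several results below depended on it.

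Of the 47 genes, 30 had enough counts to be tested among 16605 genes, namely 21 ligands, 5 signalling receptors and all 4 atypical receptors. The other 17, 10 ligands and 7 receptors, were below the filter, 6 of the 47 had at most 3 counts in every uterus, and *Cxcr1* had 0 counts in all 6. None of the 30 passed a false discovery rate (FDR) under 0.05 with more than 2-fold change in edgeR's quasi-likelihood test, in which 0.157% of all tested genes were called (0.126% higher and 0.0301% lower). At an unadjusted p under 0.05 there were 6 of 30 genes (20%, 1 higher and 5 lower in *Gp130* ecKO), against 25% of all tested genes (12.1% higher and 12.9% lower). CPM did not overlap between the groups for 8 of 30 (26.7%, 1 higher and 7 lower), against 31.3% of all tested genes, of which 15.7% were higher and 15.6% lower. Counted in both directions, neither share of the members exceeded the background with the filter applied, and the lower direction alone held 16.7% and 23.3% of the members, beside 12.9% and 15.6% of all tested genes. On deposited TPM 6 of 30 did not overlap (20%, 1 higher and 5 lower), against 28.7% of all tested genes (16.7% higher and 12.1% lower), and *Ccl6* and *Ccl8* were apart on CPM alone. The filter asks for 3 uteri at 0.397 CPM, a level that 12 of the 30 reached in fewer than 3 *Gp130* ecKO uteri, so that these needed control uteri to be tested, among them *Cxcl5* (0 *Gp130* ecKO uteri), *Ccl2* (1), *Ccl7* (2) and *Ccl12* (2). Nothing is read from the lower shares for that reason. Without a filter 13 of 46 members (28.3%, 2 higher and 11 lower) had an unadjusted p under 0.05, against 16.8% of 29916 genes. Among the 13 were genes near the floor of detection, such as *Ccr6*, with 0 counts in each control and 1 in each *Gp130* ecKO uterus. Nothing is therefore read from this share. The fitted log2 fold change was negative for 24 of the 30 genes, with a median of -0.389, beside -0.0468 over all tested genes. Without *Gp130* ecKO 2 the median was -1.05 beside -0.0343 over all genes, and 11 members were lower at an unadjusted p under 0.05, beside 11.4% of 17112 genes. Genes that needed control uteri to be tested enter these signs, medians and lower counts too, so nothing is read from them either. edgeR's exact test called 7.54% of all tested genes (3.75% higher and 3.79% lower) and DESeq2 called 9.31% (4.41% and 4.9%). Each called 5 members, *Ccl28* as higher and *Ccl7*, *Ccl9*, *Cxcl12* and *Cxcl5* as lower. Without control 2 the quasi-likelihood test called 5.2% of genes (3.4% higher and 1.81% lower) and 2 members, *Cxcl12* and *Cxcl5*, both lower.

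**Figure D1:**
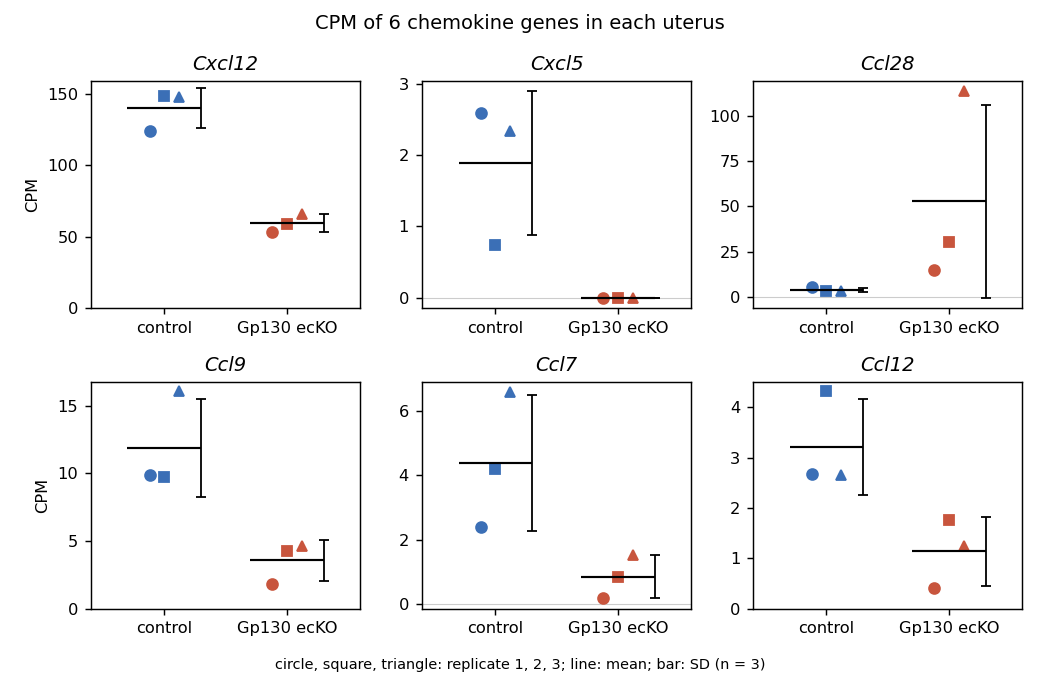
CPM of the 6 genes with an unadjusted p under 0.05 in each uterus, with the mean as a line and the SD as a bar (n = 3); control in blue, *Gp130* ecKO in red. In all 6 panels the groups do not overlap, *Cxcl5* is at 0 in every *Gp130* ecKO uterus, and the *Ccl28* values of *Gp130* ecKO spread from 14.8 to 113.3 CPM.

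Levels of different genes were compared on the length-corrected TPM scale. In the control uterus 3 ligands, *Cxcl17*, *Cxcl12* and *Cxcl14*, made up 63.2% ± 8.64 (SD, n = 3) of the summed TPM of the 31 ligands. *Cxcl17*, a ligand of mucosal tissues, had the highest mean at 175.7 ± 99.9 TPM. *Cxcl12* followed at 80.3 ± 19.1 TPM and *Cxcl14*, a ligand of resting epithelia, at 60.5 ± 29.2 TPM, and the spreads of these neighbours overlapped. *Ccl6* at 38.8 ± 11.2 TPM and *Ccl8* at 32.1 ± 3.97 TPM came next, with spreads that overlapped. In *Gp130* ecKO the same 3 ligands held 65.8% ± 16.9 of the total. The summed TPM of all ligands was 566.6, 368.1 and 539.9 in the controls and 554.5, 425.1 and 324.2 in *Gp130* ecKO, with overlap. Within it, *Cxcl12* moved from rank 2 to rank 3 (36.1 ± 0.403 TPM) and *Ccl28* from rank 19 (1.47 ± 0.340 TPM) to rank 6 (18.8 ± 17.2 TPM). The latter rested on *Gp130* ecKO 3, without which *Ccl28* ranked 10 with a lower mean of 9.0 TPM.

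**Figure D2:**
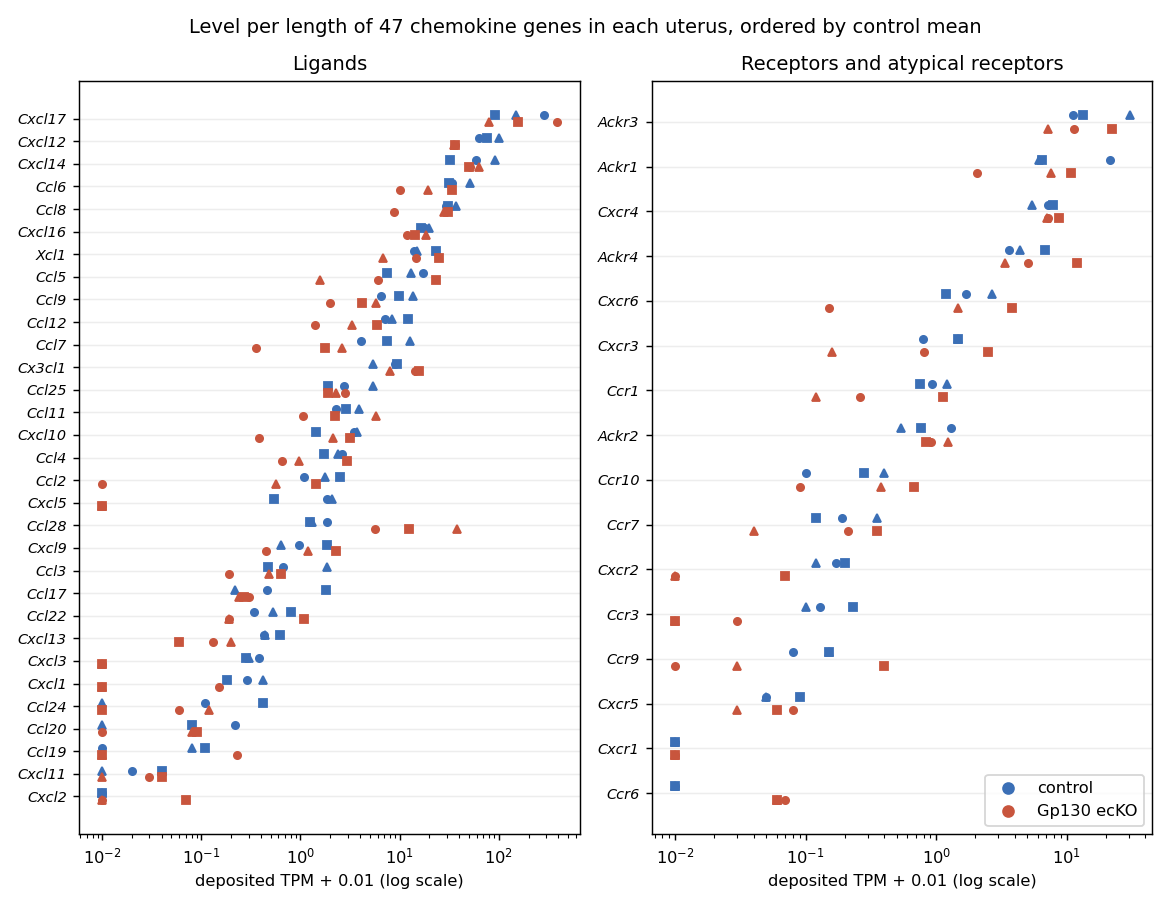
Deposited TPM plus 0.01 on a log axis for 31 ligands (left) and 16 receptors (right) in each uterus, ordered by the control mean; control in blue and *Gp130* ecKO in red, with a circle, square and triangle for replicates 1, 2 and 3. *Cxcl17*, *Cxcl12* and *Cxcl14* lead the ligands, *Ackr3* and *Ackr1* lead the receptors, and the *Gp130* ecKO values of many leukocyte genes spread more widely than the control values.

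*Cxcl12* (chr6:117144945-117158328, GRCm39), the ligand of *Cxcr4* that holds leukocytes and progenitor cells near stromal and vascular cells, had the smallest p of the list. Its CPM was 124.2, 148.2 and 148.0 in the controls and 53.3, 59.0 and 66.1 in *Gp130* ecKO. On CPM the groups were separated by a gap wider than the spread within either of them. On deposited TPM the controls were at 63.28, 76.72 and 100.93 and *Gp130* ecKO at 36.25, 36.43 and 35.66. The groups were separate there too, but by a gap narrower than the spread of the controls. The log2 fold change was -1.24 (SE 0.16, 2.36-fold lower), with an adjusted p of 0.0548 in edgeR's quasi-likelihood test and a range of -1.29 to -1.16 when each uterus was left out. An exact two-sided permutation test of *Cxcl12* gave p = 0.1, the smallest that 3 against 3 uteri allow. Of 6 uterine stroma markers, 5 were lower at an unadjusted p under 0.05. Their summed TPM ranged from 883 to 1080 in the controls and from 593 to 708 in *Gp130* ecKO, and the first listed were *Hand2* (log2 fold change -1.09) and *Hoxa10* (-0.83). The 6 endothelial markers were all lower at that threshold, with a summed TPM of 171 to 374 and 87.1 to 171, *Pecam1* at -1.20 and *Cdh5* at -0.94. Their part in the *Cxcl12* difference was not tested, and in whole uteri fewer cells of a type and less RNA per cell cannot be told apart.

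The receptor *Cxcr4* showed no such gap. Its CPM was 10.1, 10.4 and 6.67 in the controls and 8.27, 9.19 and 9.62 in *Gp130* ecKO, which overlap. The log2 fold change was -0.01 (SE 0.27), and its sign turned under DESeq2, under scaling by DESeq2-type size factors and when single uteri were left out. *Ackr3*, the atypical receptor that takes *Cxcl12* out of the extracellular space, was read at 27.0, 30.8 and 65.0 CPM and at 24.1, 43.6 and 16.6 CPM, again with overlap (log2 fold change -0.54, SE 0.45, adjusted p = 0.473 in edgeR's quasi-likelihood test). *Cxcl14* and *Cxcl17* overlapped too. *Cxcl14* had 81.2, 42.7 and 114.6 CPM against 63.1, 57.0 and 84.8 CPM (log2 fold change -0.22, SE 0.35). *Cxcl17* had 159.3, 48.9 and 73.1 CPM against 189.9, 70.8 and 44.1 CPM (0.12, SE 0.60), and replicate 1 was the highest uterus in each group. Without control 2, control 3 or *Gp130* ecKO 1 the sign of *Cxcl17* turned, and without control 3 that of *Cxcl14*.

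The CXC ligands that attract neutrophils, which act through *Cxcr2*, were scarce on this list in both groups. Of the 4, only *Cxcl5* could be tested with the filter on low counts. *Cxcl5* (chr5:90907186-90909483), made mainly by epithelial cells, had 64, 19 and 35 counts in the controls (2.59, 0.733 and 2.33 CPM) and 0 in all 3 *Gp130* ecKO uteri. Set against a floor of 3 counts per library, its mean CPM was at least 15.1-fold lower, and at least 12.2-fold lower with any single control left out. The adjusted p was 0.0694 in edgeR's quasi-likelihood test, 0.0270 without control 2. *Cxcl5* passed the filter only through the control group, and had therefore to differ in order to be tested. *Cxcl3* was counted 7, 5 and 3 times in the controls and 0 times in each *Gp130* ecKO uterus, at least 1.80-fold lower against the same floor. *Cxcl1* had 5, 3 and 8 counts against 2, 0 and 0, while *Cxcl2* had 1 count in *Gp130* ecKO 2 and none elsewhere. Summed over these 4 ligands, the level was 2.48, 0.97 and 2.78 TPM in the controls and 0.14, 0.06 and 0 TPM in *Gp130* ecKO. The receptor *Cxcr2* had 8, 11 and 3 counts against 0, 3 and 0. *Cxcl1*, *Cxcl3* and *Cxcr2* were tested only with the filter removed, where 16.8% of 29916 genes had an unadjusted p under 0.05 and the adjusted p of these 3 was 0.266, 0.143 and 0.220 in edgeR's quasi-likelihood test (0.237, 0.0223 and 0.168 in the exact test).

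Of 9 neutrophil markers, 5 could be tested and 3 were lower at an unadjusted p under 0.05, all without overlap: *S100a8* (log2 fold change -3.24), *S100a9* (-3.42) and *Retnlg* (-3.06). These 3 passed the filter only through the control group and had therefore to be lower in order to be tested. The other tested markers overlapped, *Csf3r* at -1.25 and *Ly6g* at 1.08, the latter with higher values in *Gp130* ecKO. The summed TPM of the 9 was 20.3, 20.5 and 9.35 in the controls and 2.64, 8.89 and 10.2 in *Gp130* ecKO, which overlap in control 3, and *Elane*, *Ngp* and *Camp*, genes of immature neutrophils, had at most 3 counts in every uterus. *Mpo*, another such gene, was below the filter and had 1.09, 0.386 and 0.400 CPM against 0.0904, 0.0769 and 0.332, without overlap (log2 fold change -1.90, adjusted p = 0.260 without a filter in edgeR's quasi-likelihood test). Whether fewer neutrophils account for the *Cxcr2* counts was not tested.

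*Cxcl1*, *Cxcl2* and *Cxcl3* lie close together on chromosome 5 and share a promoter element, which is shown because the counts of *Cxcl1* and *Cxcl3* were lower together. The windows run from 250 bases before to 50 bases after the transcription start, from RefSeq, and were placed on GRCm39 by exact match. The promoter of *Ccl9*, lower too, and that of *Ccl28*, the single ligand with higher values at an unadjusted p under 0.05, are set beside them. The windows of *Cxcl12* and *Ccl12*, likewise lower at that threshold, held no match to any motif searched, and no window was matched to *Cxcl5* or *Ccl7*. Capitals mark matches to an NF-kB motif, GGG and then TTTCC with any 2 bases between them, on either strand. The windows are chr5:91038854-91039153 (plus strand) for *Cxcl1*, chr5:90933710-90934009 (plus) for *Cxcl3*, chr11:83469413-83469712 (minus) for *Ccl9* and chr13:120085105-120085404 (plus) for *Ccl28*.
Cxcl1: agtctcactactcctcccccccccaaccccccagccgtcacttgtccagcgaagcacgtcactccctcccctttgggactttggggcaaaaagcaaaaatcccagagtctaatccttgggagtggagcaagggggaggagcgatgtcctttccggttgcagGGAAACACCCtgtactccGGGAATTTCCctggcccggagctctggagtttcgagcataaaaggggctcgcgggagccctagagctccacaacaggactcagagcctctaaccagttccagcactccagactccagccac
Cxcl3: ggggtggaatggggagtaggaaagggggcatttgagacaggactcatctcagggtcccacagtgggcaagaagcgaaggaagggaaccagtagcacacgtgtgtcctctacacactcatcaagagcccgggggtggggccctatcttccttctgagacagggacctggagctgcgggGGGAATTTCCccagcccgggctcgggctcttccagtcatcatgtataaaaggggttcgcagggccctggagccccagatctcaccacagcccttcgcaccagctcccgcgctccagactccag
Ccl9: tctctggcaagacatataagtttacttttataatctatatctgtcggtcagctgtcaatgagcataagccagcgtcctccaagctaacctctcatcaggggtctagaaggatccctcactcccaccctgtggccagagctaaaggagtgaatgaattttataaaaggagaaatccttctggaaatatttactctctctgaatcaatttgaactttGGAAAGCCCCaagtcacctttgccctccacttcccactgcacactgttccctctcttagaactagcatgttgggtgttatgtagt
Ccl28: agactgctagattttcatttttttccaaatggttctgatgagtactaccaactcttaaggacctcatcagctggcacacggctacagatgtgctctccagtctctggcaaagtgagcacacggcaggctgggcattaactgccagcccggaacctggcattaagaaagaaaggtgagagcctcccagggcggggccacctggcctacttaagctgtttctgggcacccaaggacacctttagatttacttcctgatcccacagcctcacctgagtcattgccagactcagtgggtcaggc

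The run GGGAATTTCC stood in *Cxcl1* with its first base at -71 from the start and in *Cxcl3* at -73. *Cxcl2*, which had 1 count in all, held it at -97, with a further match at -78, and *Cxcl1* held a further match on the other strand at -89. *Ccl9* had 1 match on the other strand at -35, and *Ccl28* had none in this window. Of 36 windows found for 34 of the 47 genes, 6 (16.7%) held the NF-kB motif, belonging to *Cxcl1*, *Cxcl2*, *Cxcl3*, *Ccl9*, *Ccl20* and *Ccr3*, against 1.63% of 32841 mouse windows of the same length. The STAT motif TTCNNNGAA, which STAT3 downstream of *Gp130* can bind, was in 3 windows (8.33%), *Ccl17*, *Ccr6* and *Cxcl14*, against 8.3% of all. The interferon motif, GAAA repeated after any 2 bases, was in 3 (8.33%), *Ccl19*, *Cxcl10* and *Cxcl14*, against 3.44%, and the estrogen receptor motif, GGTCA and TGACC with any 3 bases between them, in 0, against 0.07%. All motifs were searched on both strands and no matches overlapped. *Cxcl1*, *Cxcl2* and *Cxcl3* are related copies, so their matches are not independent, and a match describes letters and not binding.

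*Ccl28* (chr13:120085355-120115895), a mucosal epithelial ligand that attracts plasma cells and lymphocytes through *Ccr10* and eosinophils through *Ccr3*, had higher values in *Gp130* ecKO. Its CPM was 5.54, 3.51 and 3.33 in the controls and 14.8, 30.2 and 113.3 in *Gp130* ecKO. All 3 *Gp130* ecKO uteri were above all controls, but they differed among themselves more than the controls did, and *Gp130* ecKO 3 alone lay far above the others. The log2 fold change was 3.67 (SE 0.75, 12.7-fold higher), adjusted p = 0.0732 in edgeR's quasi-likelihood test, from 2.47 to 4.12 with single uteri left out. As a share of the summed ligand TPM, *Ccl28* went from 0.303% ± 0.0521 to 5.24% ± 5.76. Of 75-base stretches of its transcripts, 6.3% also occur on the opposite strand in *Gm60502*, and whether counting used strand is not given in the sources used here.

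Part of the epithelial markers were higher beside it. At an unadjusted p under 0.05, 3 of 6 were higher, *Krt8* (log2 fold change 1.32), *Krt19* (2.19) and *Cdh1* (0.66), while *Epcam* was at -0.19 and the gland gene *Foxa2* at 0.26, both with overlap. The summed TPM of the 6 was 1180 to 1910 in the controls and 2990 to 4250 in *Gp130* ecKO. *Ovgp1*, the oviduct glycoprotein gene, was called (61.3 and 786.8 mean CPM, log2 fold change 3.68, adjusted p = 0.0377 in edgeR's quasi-likelihood test), and *Foxj1*, of ciliated cells, was at 2.11 with overlap. The part of epithelial content or of oviduct tissue in the *Ccl28* values was not tested.

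Neither receptor of *Ccl28* had separate groups with higher values in *Gp130* ecKO. *Ccr10* had 3, 9 and 7 counts in the controls and 2, 19 and 12 in *Gp130* ecKO, with overlap (log2 fold change 0.60, SE 0.76). *Ccr3*, the eotaxin receptor, had 8, 14 and 3 counts against 1, 0 and 0, so that the groups did not overlap; it was below the filter, and without one its adjusted p was 0.126 in edgeR's quasi-likelihood test and 0.0276 in the exact test. The eosinophil peroxidase gene *Epx* had 0 counts in every uterus and *Siglecf* was at 0.217 and 0.105 mean CPM. *Il5ra*, of the same list and below the filter, had 0.0762 and 0.635 mean CPM, with overlap. The eotaxin *Ccl11* was read at 1.86, 2.24 and 2.80 CPM against 0.769, 1.5 and 4.68 CPM, and its log2 fold change of 0.03 became -0.96 without *Gp130* ecKO 3. *Ccl24*, the other eotaxin, had at most 4 counts. Of the remaining mucosal ligands, *Ccl25* overlapped (2.54 and 1.69 mean CPM, log2 fold change -0.54) and *Ccl20* had at most 3 counts.

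The 4 CC ligands that attract monocytes, *Ccl2*, *Ccl7*, *Ccl8* and *Ccl12*, lie within a short stretch of chromosome 11 together with *Ccl11*. All 4 had negative log2 fold changes, 2 of them with an unadjusted p under 0.05, but *Ccl2*, *Ccl7* and *Ccl12* needed control uteri to pass the filter, so these counts describe the 4 genes and are not set against all genes. *Ccl7* was read at 2.39, 4.20 and 6.60 CPM in control uteri, against 0.181, 0.846 and 1.53 CPM in *Gp130* ecKO. *Ccl12* was read at 2.67, 4.32 and 2.67 CPM against 0.407, 1.77 and 1.24 CPM. The groups were separate for both genes, and *Gp130* ecKO 1 was the lowest uterus for both. The log2 fold change was -2.33 (SE 0.67, adjusted p = 0.112) for *Ccl7* and -1.49 (SE 0.53, adjusted p = 0.149) for *Ccl12* in edgeR's quasi-likelihood test. With single uteri left out they ranged from -3.00 (without *Gp130* ecKO 3) to -1.86 (without *Gp130* ecKO 1) for *Ccl7* and from -1.95 to -1.10 for *Ccl12*.

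*Ccl8*, the most abundant of these 4 on the TPM scale, had 10.4, 10.2 and 11.5 CPM against 2.76, 8.85 and 9.82 CPM. The groups did not overlap on this scale but did on deposited TPM, where the controls were at 29.3, 30.4 and 36.7 and *Gp130* ecKO at 8.79, 30.6 and 27.9 (log2 fold change -0.58, SE 0.45, adjusted p = 0.443 in edgeR's quasi-likelihood test). *Ccl2* had 16, 38 and 17 counts against 0, 18 and 8, with overlap (log2 fold change -1.60, SE 0.79, adjusted p = 0.250 in edgeR's quasi-likelihood test), and its log2 fold change was -2.62 without *Gp130* ecKO 2 and -1.06 without *Gp130* ecKO 1. Summed over the 4 ligands, the level was 41.5, 52.6 and 59.4 TPM in the controls and 10.5, 39.6 and 34.4 TPM in *Gp130* ecKO. The control uteri were above all *Gp130* ecKO uteri, and *Gp130* ecKO 1 was far below the rest.

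A second stretch of chromosome 11 holds the ligands of the macrophage inflammatory protein type, most of which bind *Ccr1*. *Ccl9* (chr11:83463745-83473161), made by macrophages and other myeloid cells, had 9.87, 9.76 and 16.1 CPM in control uteri, against 1.85, 4.23 and 4.64 CPM in *Gp130* ecKO. On deposited TPM the gap was narrow, from 6.41 in the lowest control to 5.77 in the highest *Gp130* ecKO uterus. The log2 fold change was -1.72 (SE 0.42, 3.30-fold lower), adjusted p = 0.0897 in edgeR's quasi-likelihood test, and -1.92 to -1.41 with single uteri left out. With limma on log2(TPM + 0.5) it was -1.25, adjusted p = 0.155. Its neighbour *Ccl6* had 19.3, 18.3 and 29.5 CPM against 5.47, 17.4 and 11.7 CPM, which just avoid overlap, whereas on deposited TPM they overlapped (log2 fold change -0.95, SE 0.42, adjusted p = 0.211 in edgeR's quasi-likelihood test). *Ccl3*, *Ccl4* and *Ccl5* overlapped. *Ccl3*, below the filter, had 0.510 and 0.216 mean CPM, and *Ccl4* had 1.01 and 0.627. *Ccl5*, which T and NK cells make, had 6.39, 2.62 and 4.27 CPM against 1.99, 7.08 and 0.580, so that *Gp130* ecKO 2 was the highest of all uteri and *Gp130* ecKO 3 the lowest.

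The receptor *Ccr1* had 2.06, 1.58 and 2.40 CPM in control uteri, against 0.497, 2.04 and 0.249 CPM in the others (log2 fold change -1.08, SE 0.69, adjusted p = 0.360 in edgeR's quasi-likelihood test). *Gp130* ecKO 2 lay among the controls, and the other *Gp130* ecKO uteri were far below. With single uteri left out the log2 fold change ranged from -2.41, without *Gp130* ecKO 2, to -0.60. Of 11 macrophage markers 8 had negative log2 fold changes (median of the list -0.554), but only *Mrc1* had an unadjusted p under 0.05 (26.1 and 10.7 mean CPM, log2 fold change -1.28). *Adgre1* was at -0.55, *Csf1r* at -0.60 and *C1qa*, *C1qb* and *C1qc* at -0.76 to -0.91, whereas *Cd68* (0.39), *Cd14* (0.52) and *Lyz2* (0.39) had positive values, all 8 with overlap. The summed TPM of these markers was 501 to 652 in the controls and 417 to 762 in *Gp130* ecKO. By staining for a macrophage marker, the authors counted significantly more positive cells in the stroma of *Gp130* ecKO than in controls. The negative values of these marker RNAs in whole uteri are therefore not read as fewer macrophages. The part of macrophages in the *Ccl9* and *Ccr1* values was not tested.

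**Figure D3:**
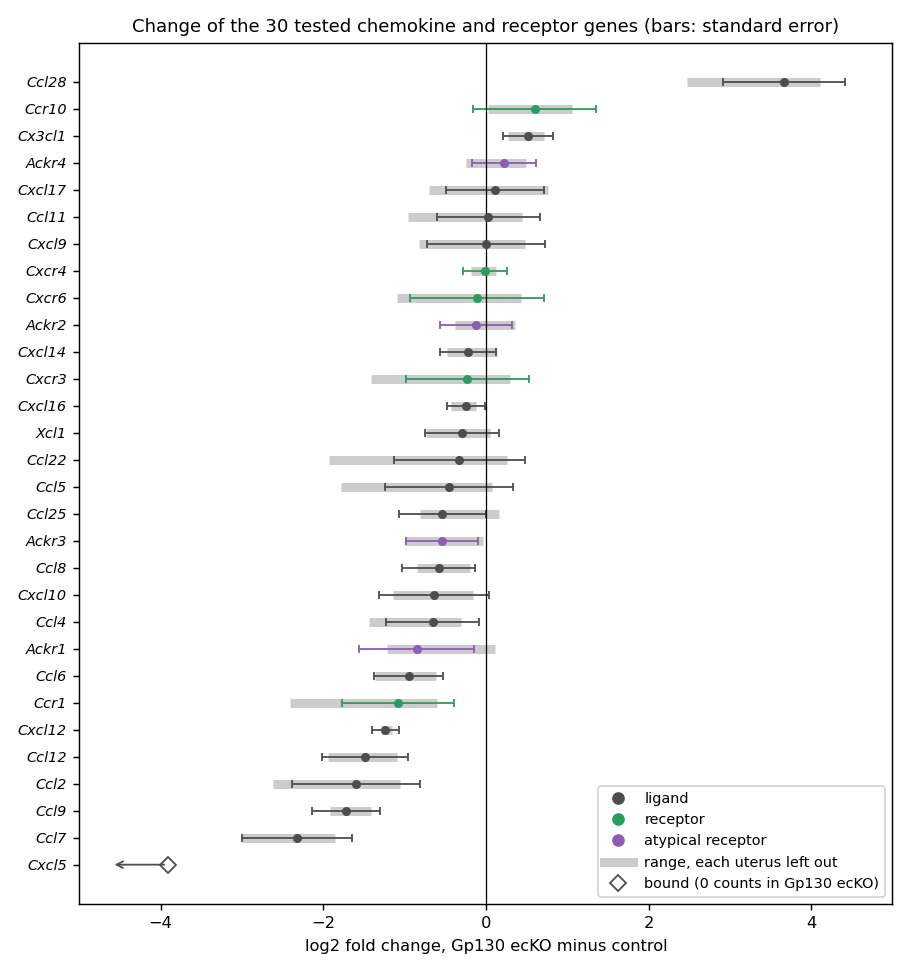
Log2 fold change (*Gp130* ecKO minus control) of the 30 tested genes with its standard error, over a grey bar for the range with each uterus left out; grey points are ligands, green receptors and purple atypical receptors. *Cxcl5* is drawn at its bound of at least 15.1-fold lower, *Cxcl12* has a narrow range, and the range crosses 0 for many genes near the middle.

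*Cxcl9*, *Cxcl10* and *Cxcl11* are induced by interferon and bind *Cxcr3* on T and NK cells. *Cxcl9* had 1.70, 2.35 and 0.667 CPM against 0.271, 3.00 and 1.53 CPM, and *Cxcl10* had 2.87, 1.23 and 2.73 CPM against 0.271, 2.27 and 1.74 CPM. Both were lowest in *Gp130* ecKO 1 and overlapped between the groups (log2 fold changes near 0 and of -0.64). *Cxcl11* had at most 2 counts. *Cxcr3* was read at 1.05, 1.85 and 1.73 CPM against 0.949, 2.73 and 0.207 CPM, and *Cxcr6*, the receptor of *Cxcl16*, at 2.51, 1.66 and 3.53 CPM against 0.181, 4.62 and 2.16 CPM. For both receptors the highest uterus was *Gp130* ecKO 2.

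The same uterus was the highest for *Ccl22* (1.54 CPM, against 0.271 and 0.166 in the other *Gp130* ecKO uteri and 0.566 to 1.31 in the controls) and for *Ccr9*, with 20 counts against 0 and 1 in the other *Gp130* ecKO uteri. The summed TPM of T cell markers was 16.8 in *Gp130* ecKO 2, 1.46 and 5.03 in the other *Gp130* ecKO uteri and 5.86 to 9.77 in the controls. That of NK cell markers was 74.8, 38.7 and 14.9 in *Gp130* ecKO 2, 1 and 3 and 48.8 to 80.6 in the controls. Erythroid markers, mostly haemoglobin genes, summed to 1010 TPM in *Gp130* ecKO 2, 168 and 106 in the others and 481 to 881 in the controls. None of the T cell, NK cell or erythroid markers had an unadjusted p under 0.05, and the first listed were *Cd3d* (log2 fold change -0.38), *Cd3e* (-0.36), *Ncr1* (-0.37), *Klrb1c* (-0.35), *Hba-a1* (-1.58) and *Hba-a2* (-0.95). Their part in the values of single uteri was not tested.

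**Figure D4:**
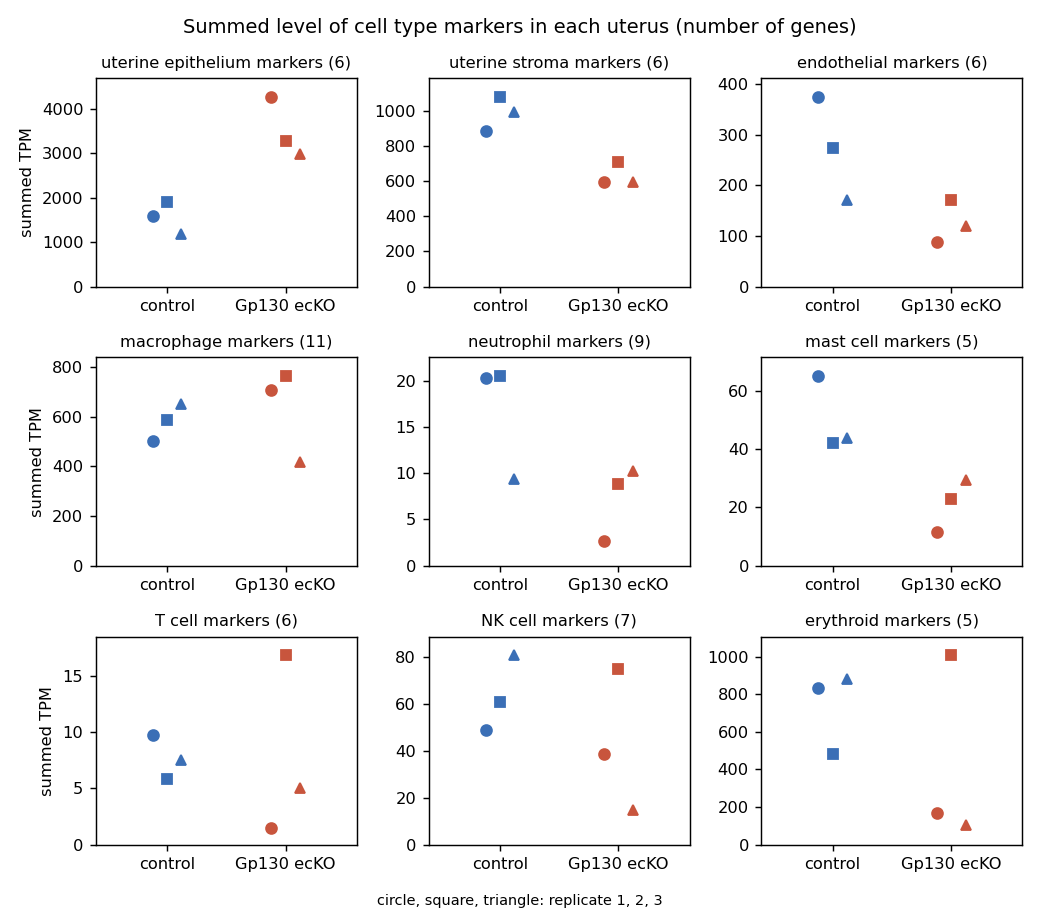
Summed deposited TPM of 9 marker lists in each uterus, with axes from 0 and the number of genes in each title; a circle, square and triangle stand for replicates 1, 2 and 3. The sums of epithelial markers are higher and those of stroma and mast cell markers lower in every *Gp130* ecKO uterus than in any control. Single genes of these lists overlap between the groups, among them *Epcam*, *Pdgfra* and *Cpa3*. The sums of T cell and erythroid markers are highest in *Gp130* ecKO 2.

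The remaining marker lists were read in the same way. Of 5 mast cell markers 3 were lower at an unadjusted p under 0.05, with a summed TPM of 42.1 to 65.0 in the controls and 11.4 to 29.4 in *Gp130* ecKO (*Cpa3* -1.15 with overlap, *Kit* -1.07 without). Of 6 dendritic cell markers 1 was lower, *Clec9a* (-1.83, without overlap), which needed control uteri to be tested. *Flt3* (-0.61) and *Zbtb46* (0.02) overlapped. The single tested adipose marker, *Fabp4*, was lower (-1.79, without overlap) and needed control uteri to be tested, while *Adipoq* and *Plin1* were below the filter. None of the tested eosinophil (2), B cell (2), lymphatic (4; *Lyve1* -0.25, *Prox1* -0.18) or smooth muscle (5; *Acta2* -0.22, *Myh11* -0.19) markers had an unadjusted p under 0.05, *Ms4a1* was below the filter, and no blastocyst marker (*Pou5f1*, *Nanog*) could be tested. The summed TPM of smooth muscle markers differed widely within both groups, from 377 to 1790 and from 328 to 1990.

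*Xcl1*, made by NK cells, had 5.10, 8.10 and 4.80 CPM against 4.75, 7.5 and 2.45 CPM (log2 fold change -0.30, SE 0.45). *Cxcl16* and *Cx3cl1*, the ligands held in the membrane until they are shed, overlapped as well. *Cxcl16* had 22.4, 20.3 and 21.6 CPM against 14.9, 16.2 and 23.1 CPM (-0.25, SE 0.23). Of its 75-base stretches, 74.1% also lie on the opposite strand in *Med11* or *Zmynd15*, so its counts depend on the strand setting. *Cx3cl1* had 23.5, 23.7 and 12.5 CPM against 32.1, 32.5 and 20.8 CPM (0.51, SE 0.31, adjusted p = 0.331 in edgeR's quasi-likelihood test). *Cxcl13*, the B cell attractant, had 9, 13 and 5 counts against 2, 1 and 4, without overlap and below the filter (adjusted p = 0.206 without a filter in edgeR's quasi-likelihood test). Its receptor *Cxcr5* had at most 4 counts, *Ccr7* had 1 to 11, and *Ccl17* had 16 counts in control 2 and at most 4 elsewhere. *Ccl19* had at most 2 counts, and 67.9% of its stretches are shared with its pseudogenes. *Ccr6*, the receptor of *Ccl20*, had 0 counts in each control and 1 in each *Gp130* ecKO uterus, values within the floor of detection.

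On the TPM scale the most abundant receptors in the controls were *Ackr3* (18.3 ± 10.5 TPM) and *Ackr1* (11.3 ± 8.70 TPM), then *Cxcr4* (6.79 ± 1.25 TPM) and *Ackr4* (4.94 ± 1.69 TPM), and the spread of each overlapped that of its neighbour. *Cxcr6* (1.85 ± 0.757 TPM) and *Cxcr3* (1.23 ± 0.387 TPM) followed. *Ackr1*, which carries chemokines across venular endothelium, had 18.7, 5.36 and 4.67 CPM against 1.58, 7.69 and 6.63 CPM. Control 1 was far above all other uteri, and without it the log2 fold change of -0.85 became 0.11. *Ackr2*, a scavenger of inflammatory CC ligands, was at 1.91 and 1.79 mean CPM and *Ackr4*, a scavenger of *Ccl19* and *Ccl25*, at 7.81 and 9.10, both with overlap. Summed over the 12 signalling receptors, the level was 11.3, 12.2 and 11.8 TPM in the controls and 8.82, 17.7 and 9.32 TPM in *Gp130* ecKO.

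The genes through which chemokine receptors signal were read from a list of 24, all tested. None was called by edgeR's quasi-likelihood test. At an unadjusted p under 0.05, 4 were lower and 0 higher, and the median log2 fold change was -0.403. Of all tested genes, 12.9% were lower and 12.1% higher at that threshold, with a median of -0.0468. The list was not tested against these shares, nor were the lists of inducers and of processing genes below, so nothing is read from their counts. The smallest p belonged to *Rgs2*, a regulator that switches off G proteins (442.0 and 191.4 mean CPM, log2 fold change -1.21, adjusted p = 0.0811 in edgeR's quasi-likelihood test). *Grk6*, a kinase that desensitises receptors (-0.58), and *Arrb2*, the arrestin that ends their signal (-1.03), came next. Of these 3, only *Rgs2* and *Arrb2* exceeded a 2-fold difference.

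Of 15 genes that induce chemokines, 11 were tested, 2 were higher and 1 lower at an unadjusted p under 0.05, and none was called. *Csf3*, the granulocyte growth factor G-CSF, had 0.607, 2.89 and 2.33 CPM in control uteri, against 31.4, 32.6 and 11.9 CPM after the deletion (log2 fold change 3.71, adjusted p = 0.0616 in edgeR's quasi-likelihood test), opposite in direction to *Cxcl5*. *Tnfrsf1a*, a receptor of tumour necrosis factor, was at -0.98. Of 12 genes that cut, bind or display chemokines, 11 were tested, 1 was higher and 2 lower at that threshold, with a median of -0.148 beside -0.152 for the inducers. *Mmp12*, a macrophage elastase that cleaves chemokines (-2.98, adjusted p = 0.0677 in edgeR's quasi-likelihood test), and *Sdc1*, a surface proteoglycan that holds them (-0.57), were lower, though *Mmp12* too passed the filter only through the control group. *Dpp4*, a peptidase that trims the N terminus of *Cxcl12* among others, was higher (63.1 and 119.9 mean CPM, 0.92, adjusted p = 0.170 in edgeR's quasi-likelihood test).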

How the data were processed

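The authors made strand-specific poly(A) libraries of whole uteri, trimmed the single reads with fastp 0.23.2, removed ribosomal reads with SortMeRNA, mapped to GRCm39 with STAR 2.7.10a and estimated counts with RSEM 1.3.3, and used edgeR 3.38.4 in R 4.2.1, per the labels. The annotation version and the test are not given in the sources used here. The deposited expected counts are not normalized, and RSEM divides reads shared between genes. The authors scaled the deposited TPM for transcript length and library, and likewise the deposited FPKM, used here only as an alternative to TPM.

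After rounding, expected counts went into edgeR 4.0.16 under R 4.3.3 (filterByExpr, TMM, quasi-likelihood test over 16605 genes, Benjamini-Hochberg adjustment). Genes were called at FDR under 0.05 and more than 2-fold. Alternatives were edgeR's exact test, the legacy quasi-likelihood form, DESeq2 1.42.0, limma 3.58.1 on log2(TPM + 0.5), other scaling and filters, each uterus left out, and a block for the replicate number. Single genes were compared by an exact permutation test of log2(CPM + 0.5). A fold against a group with 0 counts throughout used a floor of 3 counts per library. Total counts ranged from 13960748 to 25906443, and floors cover counting error only. Symbols and coordinates came from GENCODE M39, which held 56017 of 56748 identifiers, and promoters from RefSeq. The script was tested on simulated data.

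All 47 genes of the list were named, in full where the unadjusted p was under 0.05 or the groups did not overlap. Named beside them were *Il6st*, called genes of the pathway and marker lists, otherwise the 3 smallest p of each pathway list and the first 2 genes of each marker list, and further list genes, chosen after their values were seen. The other list genes enter only counts and sums. Members and lists were chosen with earlier results of these data known.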

Additional observations from a re-analysis of the deposited data

How the results depend on the processing

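Depth limits the 17 genes below the filter, and 3 against 3 uteri cannot give an exact permutation p under 0.1. The 26 genes called in the main analysis became 1252 in edgeR's exact test, 1546 in DESeq2, 7 in the legacy form of the quasi-likelihood test, 88 in limma on TPM, 105 without a filter on low counts and 1 to 892 with a uterus left out (892 without control 2). The cause was not tested.

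The number of members called, 0 in the main analysis, was 5 in the exact test and in DESeq2 and 1 without a filter (*Cxcl12*). With a uterus left out it was 0 to 2. At an FDR under 0.1 with no fold threshold it was 4, namely *Ccl9*, *Cxcl5*, *Cxcl12* and *Ccl28*. The share of all genes at that looser threshold is not given here, so nothing is read from this count. Members with an unadjusted p under 0.05 were 1 higher and 5 lower; without a filter they were 2 and 11, since more genes were tested, and the lower count was 4 to 11 with a uterus left out. Members without overlap, 8, were 14 without a filter and 9 to 16 with a uterus left out. On deposited TPM they were 6, without *Ccl6* and *Ccl8*, a comparison chosen after seeing the data. With a uterus left out the median of -0.389 was -1.05 to -0.198, and 11, 16 and -1.05 belong to the fit without *Gp130* ecKO 2. Shares of all genes without overlap are given above only for the main filter and for deposited TPM, and a group with fewer uteri overlaps less readily. Nothing is therefore read from the counts of 14 and of 9 to 16. The same holds for the lower counts with a uterus left out, apart from the fit without *Gp130* ecKO 2.

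Replicate numbers did not pair the uteri: deviations from the group means correlated at 0.104, 0.0691 and -0.196 for the same number. With the replicate number as a block 6 genes were called, of members 0 were called, and 2 were higher and 7 lower at an unadjusted p under 0.05. The share of all genes at that threshold under the block is not given here, so nothing is read from these member counts.

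The sign of single members, none of them past the threshold, turned in 56 fits, 581 fits gave the same direction and call, and 15 passed the threshold that the main analysis missed. In limma on TPM the reversed log2 fold changes were 0.156 (*Ackr2*), -0.205 (*Ccl11*), -0.00429 (*Ccr9*), 0.00934 (*Cxcl11*), 0.068 (*Cxcl9*) and 0.176 (*Cxcr4*). With the block they were -0.278 (*Ccl11*), -0.0404 (*Ccr9*), 0.0517 (*Cxcl11*) and 0.012 (*Cxcr4*). In DESeq2 they were 0.0121 (*Cxcl11*), 0.0322 (*Cxcl9*) and 0.00469 (*Cxcr4*). With DESeq2-type size factors they were 0.0109 (*Cxcl9*) and 0.00563 (*Cxcr4*), and without a filter 0.0164 and 0.0166. For *Cxcl9* the exact test gave 0.0202 and the legacy form 0.0165. With each uterus left out in turn, the log2 fold changes that turned ranged from -1.22 to 0.112 (*Ackr1*), -0.377 to 0.36 (*Ackr2*), -0.25 to 0.488 (*Ackr4*), -0.962 to 0.441 (*Ccl11*), -1.91 to 2.6 (*Ccl19*), -1.34 to 0.182 (*Ccl20*), -1.93 to 0.254 (*Ccl22*), -1.64 to 0.166 (*Ccl24*), -0.806 to 0.165 (*Ccl25*), -1.79 to 0.0728 (*Ccl5*), -0.828 to 0.357 (*Ccr7*), -3.27 to 0.708 (*Ccr9*), -0.88 to 0.665 (*Cxcl11*), -0.482 to 0.14 (*Cxcl14*), -0.703 to 0.762 (*Cxcl17*), -0.819 to 0.485 (*Cxcl9*), -1.42 to 0.301 (*Cxcr3*), -0.184 to 0.129 (*Cxcr4*), -0.721 to 0.184 (*Cxcr5*), -1.09 to 0.431 (*Cxcr6*) and -0.741 to 0.0524 (*Xcl1*).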

Other observations

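Tested genes within 500 kb of the 6 members with an unadjusted p under 0.05 were also read. *Areg*, which encodes the growth factor amphiregulin and lies on the same stretch of chromosome 5 as *Cxcl5*, was lower in *Gp130* ecKO without overlap (59.0 and 0.968 mean CPM, log2 fold change -5.90, adjusted p = 0.0636 in edgeR's quasi-likelihood test). Of the 8 tested neighbours of *Cxcl5* no other had an unadjusted p under 0.05. On chromosome 11, the transcript *E230016K23Rik* (chr11:83472882-83522277) spans *Ccl6* and reaches into *Ccl9*. It was higher in *Gp130* ecKO without overlap (5.70 and 38.6 mean CPM, log2 fold change 2.75, adjusted p = 0.0851 in edgeR's quasi-likelihood test), while *Ccl9* was lower, and *Ccl6* and *Ccl9* share 0% of their 75-base stretches with any other gene. *Tmem132e*, beside *Ccl7* and *Ccl12*, was lower without overlap (7.08 and 1.42 mean CPM, log2 fold change -2.32, adjusted p = 0.098 in edgeR's quasi-likelihood test). *Rassf4*, the single tested neighbour of *Cxcl12*, was lower with overlap (49.3 and 13.4 mean CPM, log2 fold change -1.88, adjusted p = 0.169 in edgeR's quasi-likelihood test). Of the CXC ligand genes near *Cxcl5* that are not on the list, *Cxcl15* had 37.4 and 44.5 mean CPM, with overlap, and *Pf4* had 3.54 and 1.42 mean CPM, without overlap (log2 fold change -1.28, adjusted p = 0.207 in edgeR's quasi-likelihood test). Of 20 tested neighbours of *Ccl9* 2 were higher and 2 lower at that threshold. Of 15 tested neighbours of *Ccl28* 1 was higher at that threshold and none lower. These neighbours were singled out after their values were seen, and no relation between them and the chemokine genes was tested.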
